A study of Mus musculus with 72 samples.

Results

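Lung was compared with 5 brain areas of the same mouse, by the methylation of each parental allele at imprinted and control loci. The series holds 72 bisulfite amplicon libraries from F1 hybrids bred from BL6 and CAST in both directions. The 48 libraries used here are all those of 1 sequencing lane, 40 of brain areas and 8 of lung. The other 24, from another lane, were not used here. IMPLICON, the assay, amplifies bisulfite-converted DNA at chosen loci and assigns each read to a parent by strain variants. The study asked whether imprinting holds in the aged brain, with lung as the organ outside it.

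All 8 mice were female, and each gave 6 tissues: prefrontal cortex, hippocampus, nucleus accumbens, hypothalamus, cerebellum and lung. Mice 1 and 2 were old (101 weeks) with a BL6 mother, and mice 3 and 4 were old (103 weeks) with a CAST mother. Mice 5 and 6 were young (8 weeks) with a CAST mother, and mice 7 and 8 were young (9 weeks) with a BL6 mother. The labels' general protocol gives an old range that starts later than 101 weeks, and the ages here are those given per sample. No transgene, deletion or treatment is labelled in any mouse.

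Genomic imprinting is the expression of a gene from 1 parental copy. A differentially methylated region, set in the egg or the sperm, carries the memory of parental origin and is normally kept in every somatic tissue. At the maternally methylated regions measured here the maternal copy is therefore mostly methylated and the paternal copy mostly unmethylated. Bisulfite conversion reads 5-methylcytosine and 5-hydroxymethylcytosine alike, so both count as methylated.

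The table holds 224 CpGs, and 9 regions had enough calls for a test. A call is 1 read of 1 CpG on 1 allele, and a CpG entered with 50 or more calls in a library. A region's level is the mean percent methylation of its CpGs, and a region on 1 parental allele is called a region-allele. The 6 imprinted regions tested were H13 with Mcts2, Gnas, Plagl1, Impact, Mest and Commd1 with Zrsr1. H13 is an intramembrane protease that cuts signal peptides, and Mcts2 is a retrogene inside it that is expressed from the paternal copy. Gnas encodes the stimulatory G protein alpha subunit, Plagl1 a zinc finger transcription factor and Impact a regulator of translation under stress. Mest encodes a hydrolase-like protein of mesodermal tissue, Commd1 a protein of copper handling, and Zrsr1 a splicing-factor retrogene inside it. The 3 control regions were Prickle1, a planar cell polarity gene, Sox2ot, a long non-coding RNA that overlaps the Sox2 gene, and Klf4, a pluripotency transcription factor.

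The largest difference lay upstream of Mcts2. The H13 amplicon covers chr2:152686786-152686970 (GRCm38) within the H13 gene, and its first CpG lies 362 bases before the annotated start of Mcts2. The 250 bases before that start, from RefSeq on GRCm38.p6, are shown because they hold the last 6 CpGs tested in that amplicon, of 20 CpGs in the window. Capitals mark those 6 tested CpGs.
Mcts2 upstream, chr2:152686898-152687147, plus strand: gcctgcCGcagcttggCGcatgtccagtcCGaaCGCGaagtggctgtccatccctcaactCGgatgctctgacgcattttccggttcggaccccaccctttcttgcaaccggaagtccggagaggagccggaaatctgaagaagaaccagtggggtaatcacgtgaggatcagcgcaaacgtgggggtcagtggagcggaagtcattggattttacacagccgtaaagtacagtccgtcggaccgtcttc

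Libraries held 376 to 461238 calls, with a median of 64806 in brain and 55699 in lung. The hippocampus library of mouse 3 had 376 calls and no CpG that passed, so its brain mean rests on 4 areas. Mouse 8 was shallow, with a median of 16170.5 calls over its 6 libraries. Its lung library of 9785 calls left it in few comparisons. The prefrontal cortex library of mouse 5 stood apart from the others. Its paternal Plagl1 level was 62.8%, its maternal Gnas level 2.65% and its maternal H13 level 46.1%. Results that it moves by over 1.5 times, or whose call it changes, are given with and without it. The amplicons include no cell type marker, so the dissected tissues were taken as labelled. Each level is an average over the cells of a dissected piece, so a change in every cell and a change in the mix of cells cannot be told apart.

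Against lung of the same mouse, 3 of 18 region-alleles differed, which is 16.7% of those tested. The paternal allele of H13 was lower in brain, by 8.32 percentage points. Both alleles of Prickle1 were higher in brain, by 3.06 points (paternal) and 2.96 points (maternal). The other 15 region-alleles differed by -2.00 to 6.27 points, with limma adjusted p from 0.153 to 0.824. The test was limma on the within-mouse differences, with Benjamini-Hochberg adjustment over the 18 region-alleles and a threshold of 0.05. An exact test that flips the signs of the mice, with the same adjustment, called none of the 18. Its adjusted p was 0.0938 for each of these 3. Its smallest p with 8 mice is 0.00781 before adjustment, so 1 region-allele alone could not pass it. edgeR on the calls called 4, these 3 and maternal Klf4.

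Paternal H13 was measured in all 8 mice. In old mice 1 to 4 the brain means were 6.63%, 8.97%, 5.62% and 6.77%, against 22.2%, 23.5%, 17.1% and 17.97% in their lungs. In young mice 5 to 8 the brain means were 12.7%, 7.92%, 8.81% and 15.4%, against 10.4%, 12.0%, 12.4% and 23.8% in their lungs. Brain was lower than lung in 7 of 8 mice, and mouse 5 was the exception. That exception rests on the mouse 5 prefrontal cortex library. Hippocampus, cerebellum, hypothalamus and nucleus accumbens of mouse 5 read 6.48%, 6.17%, 14.8% and 6.72%, and their mean lies below its lung level. In those 7 mice lung was also the highest of the tissues measured, 6 in each except mouse 3, which had no hippocampus value. Of 39 pairs of an area and the lung of the same mouse, 37 had the area lower. The 2 exceptions were the prefrontal cortex and the hypothalamus of mouse 5, at 29.4% and 14.8%.

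The mean paternal H13 level was 9.10 ± 3.34% in brain and 17.4 ± 5.40% in lung (SD, n = 8). The difference had a 95% interval of -12.8 to -3.80 points and a limma adjusted p of 0.0155. The exact sign-flip test gave p = 0.0156 unadjusted, where 8 mice allow 0.00781 at the least. Without the mouse 5 prefrontal cortex library the difference was -8.84 points, with a limma adjusted p of 0.00714. It did not pass with all 5 areas required (-7.86 points, limma adjusted p = 0.0647) or in young mice alone (-3.43 points, limma adjusted p = 0.391). For paternal H13, requiring all 5 areas left out mouse 3 only. Leaving out any 1 mouse from every region-allele, mouse 3 among them, kept the call (limma adjusted p up to 0.0451). The mouse 5 prefrontal cortex library had a median of 61 calls per paternal H13 CpG, and the lung library of mouse 8 had 86. The other paternal H13 lung values rest on 342 to 1784 calls per CpG. As 1 example of counting error, Wilson 95% intervals were taken at the median calls of 1 CpG, not over all CpGs of the level. That of the mouse 8 lung value ran from 15.6% to 33.2%, against 19.1% to 25.7% for mouse 1. PCR reads without molecular identifiers are not independent molecules, so such intervals cover counting error only.

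**Figure D1:**
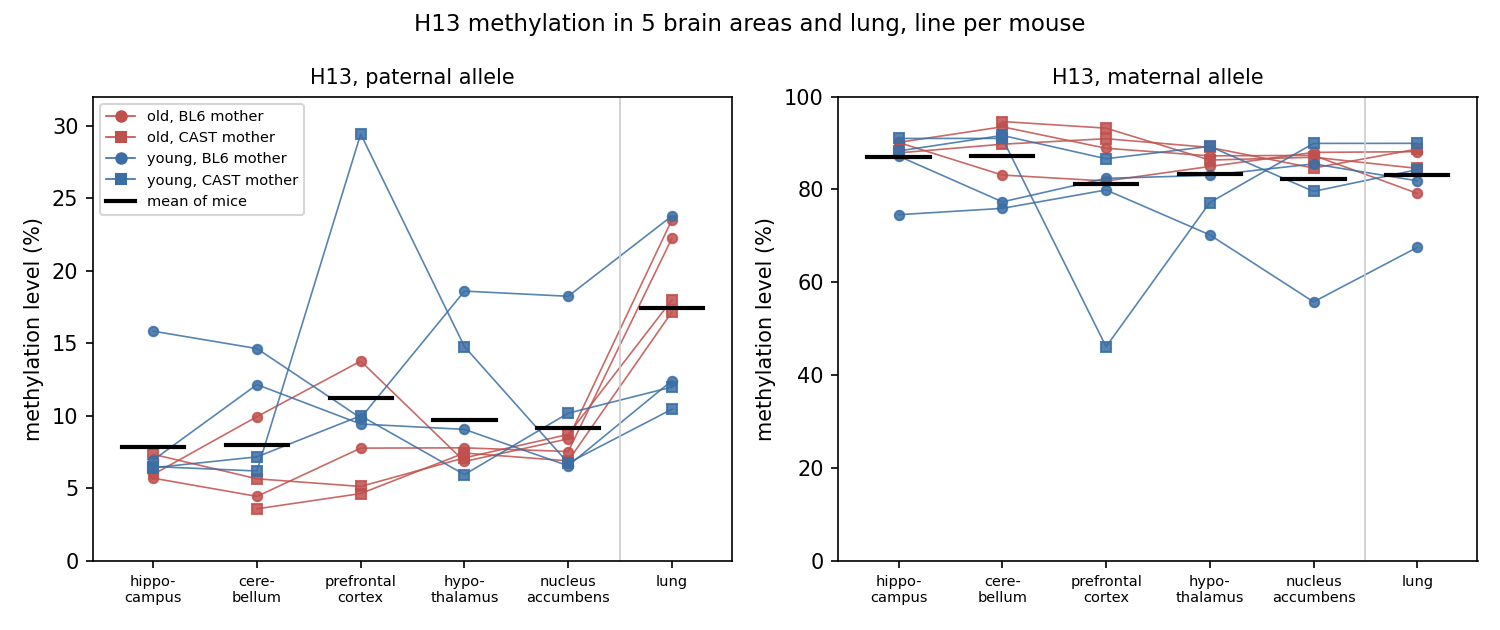
H13 methylation level in percent (y axis) by tissue (x axis), paternal allele left and maternal allele right, with 1 line per mouse, colour for age, symbol for the mother's strain and black bars for means. Lung was the highest paternal point in 7 of 8 mice, and mouse 5 stands out at 29.4% (paternal) and 46.1% (maternal) in prefrontal cortex. The y axis of the left panel ends at a lower level than that of the right panel.

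The maternal allele of the same amplicon did not pass the test. Maternal H13 averaged 84.2 ± 6.41% in brain and 82.99 ± 7.24% in lung (SD, n = 8), 1.26 points apart (limma adjusted p = 0.734, 95% interval -3.35 to 5.87). The maternal difference was 2.29 points without the mouse 5 prefrontal cortex library (limma adjusted p = 0.218). The gap between the alleles, maternal minus paternal, was 75.1 points in brain and 65.6 points in lung. Brain had the wider gap in 7 of 8 mice, by 9.58 points on average (95% interval 1.09 to 18.1). That difference did not pass (limma adjusted p = 0.283). None of the 9 regions' gaps passed in limma (0% called), and 1 had an unadjusted limma p below 0.05. The exact sign-flip test called none, but its smallest p with 8 mice is 0.00781. After adjustment over the 9, 1 region alone could not pass it. Without the mouse 5 prefrontal cortex library the H13 gap was wider in brain by 11.1 points (limma adjusted p = 0.0245). The other 8 regions' gaps differed by -0.334 to 7.80 points, with limma adjusted p of 0.738 or more.

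Along the H13 amplicon, all 18 paternal CpGs tested had the lower mean in brain, and 17 were called, by 7.15 to 9.66 points. Over all regions 25 of 223 CpG-alleles were called (11.2%), 17 lower in brain (7.62%) and 8 higher (3.59%). All 17 lower ones were paternal H13 CpGs. The largest difference among the paternal H13 CpGs was at chr2:152686927, among the capitals shown before. Its level was 6.74 ± 3.52% in brain and 16.4 ± 5.47% in lung (SD, n = 8), or -9.66 points (limma adjusted p = 0.0313, 95% interval -14.4 to -4.87). The smallest of them was at chr2:152686958, the last capital pair, which read 48.6 ± 1.58% in brain and 48.9 ± 2.12% in lung (SD, n = 8). That CpG read alike on the alleles, at 48.1% (maternal) and 48.6% (paternal) over the libraries. Why it read so was not tested, and it does not show where the difference between tissues ends. Leaving it out gave a paternal H13 difference of -8.76 points. No maternal H13 CpG was called, and the 18 tested differed by -1.97 to 2.45 points. The number of CpG calls changed with the mouse left out: 0 were called without mouse 1, 2, 3 or 4, 5 without mouse 8, 25 without mouse 5 or 6 and 27 without mouse 7. The difference at chr2:152686927 (paternal) stayed at -11.3 to -8.40 points, with limma adjusted p up to 0.0809. That at chr15:93500660 (maternal Prickle1) stayed at 4.66 to 6.11 points, also with limma adjusted p up to 0.0809. The exact sign-flip test called none of the 223, but 1 CpG-allele alone could not pass it after adjustment.

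**Figure D2:**
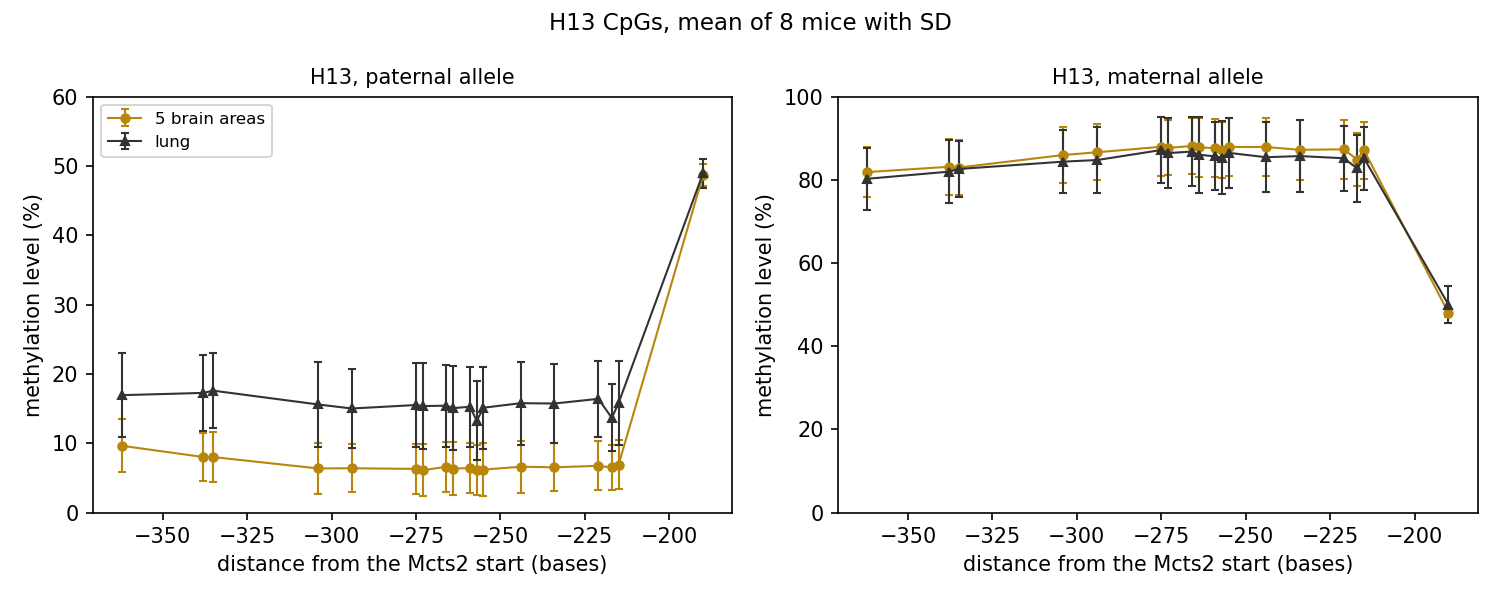
Methylation level of each H13 CpG in percent (y axis) against its distance from the Mcts2 start in bases (x axis), paternal allele left and maternal allele right, for the brain mean (circles) and lung (triangles), with means and SD of 8 mice. The paternal brain and lung profiles run apart over 17 CpGs, while the maternal profiles overlap. At the last CpG the paternal profiles read near 48.6% in brain and 48.9% in lung, and that CpG reads alike on both alleles.

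Prickle1, the methylated control, was higher in brain on both alleles in all 7 mice measured. The amplicon, chr15:93500632-93500761, lies within the Prickle1 gene. On the paternal allele, brain means of mice 1 to 4 were 91.0%, 92.1%, 91.2% and 92.2%, against 90.4%, 88.7%, 87.4% and 89.8% in lung. Those of mice 5 to 7 were 92.3%, 92.1% and 92.2%, against 88.7%, 86.95% and 89.7% in lung. No paternal brain mean lay below any lung value. The means were 91.9 ± 0.549% in brain and 88.8 ± 1.26% in lung (SD, n = 7). They lay 3.06 points apart (limma adjusted p = 0.0155, 95% interval 1.69 to 4.43).

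On the maternal Prickle1 allele, brain means of mice 1 to 4 were 91.1%, 92.1%, 90.3% and 90.4%, against 87%, 87.3%, 85.7% and 90.04% in lung. Those of mice 5 to 7 were 92.6%, 91.6% and 90.9%, against 89.4%, 89.7% and 89.4% in lung. Again every brain mean lay above every lung value. The means were 91.3 ± 0.840% in brain and 88.3 ± 1.68% in lung (SD, n = 7), 2.96 points apart (limma adjusted p = 0.0155, 95% interval 1.40 to 4.52). The exact sign-flip p was 0.0156 for each allele, the smallest that 7 mice allow. With a minimum of 100 calls per CpG neither allele was called (maternal 2.53 points with limma adjusted p = 0.272, paternal 1.53 points with limma adjusted p = 0.457).

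Within Prickle1, 2 of 11 maternal and 3 of 11 paternal CpGs were called, all of them higher in brain. The largest maternal difference was at chr15:93500660, with 94.4 ± 1.15% in brain and 88.8 ± 3.32% in lung (SD, n = 7, 5.55 points, limma adjusted p = 0.0313). The same CpG was called on the paternal allele, at 94.6% in brain and 90.6% in lung. The smallest maternal difference, -0.251 points, was at chr15:93500677, where brain read 96.98% and lung 97.2%. The largest paternal difference was at chr15:93500729, with 92.7 ± 1.74% in brain and 88.1 ± 2.98% in lung (SD, n = 7, 4.55 points, limma adjusted p = 0.0431). That call was lost on leaving out any 1 of the 8 mice, with limma adjusted p from 0.0555 to 0.120. Mouse 8 had no lung value at this CpG, so leaving it out changed only the rest of the tested set. The call was also lost with a minimum of 20 or 100 calls, on the logit scale and in edgeR. The smallest paternal one was at the last CpG, chr15:93500761, with 51.8% in brain and 52.2% in lung (-0.433 points, or -0.249 points without the mouse 5 prefrontal cortex library). That CpG read 49.8% (maternal) and 51.8% (paternal) over the libraries, and without it the Prickle1 differences were 2.80 points (paternal) and 2.89 points (maternal).

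The unmethylated controls were low in every tissue and did not pass as regions. Paternal Sox2ot averaged 3.91 ± 0.669% in brain and 2.53 ± 1.39% in lung (SD, n = 7), 1.38 points apart (limma adjusted p = 0.166). Maternal Sox2ot averaged 3.99 ± 0.501% in brain and 2.95 ± 0.909% in lung (SD, n = 7), 1.04 points apart (limma adjusted p = 0.153). The higher brain means did not hold in every area. Of 33 pairs of an area and the lung of the same mouse, 15 maternal and 21 paternal ones had the area higher. The other 18 maternal and 12 paternal pairs had the area lower. Without cerebellum in the brain mean, maternal Sox2ot passed, at 1.68 points (limma adjusted p = 0.0276). With age and cross in the fit, paternal Sox2ot passed, at 1.63 points (limma adjusted p = 0.0153). At single CpGs, 1 maternal and 2 paternal sites of Sox2ot were called, all higher in brain. At chr3:34649370 the paternal level was 6.14 ± 1.50% in brain and 1.63 ± 1.06% in lung (SD, n = 7), and the maternal level was 5.67 ± 0.718% in brain and 1.52 ± 1.44% in lung. The amplicon, chr3:34649361-34649591, ends 404 bases before the annotated start of Sox2, a neural stem cell transcription factor.

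Klf4 (chr4:55530381-55530595) was the lowest locus and had the smallest differences among the controls. In old mice 1 to 4, paternal Klf4 brain means were 1.52%, 1.34%, 1.86% and 1.99%, against 0.779%, 1.14%, 2.04% and 1.87% in lung. In young mice 5 to 7 they were 1.87%, 2.11% and 1.93%, against 0.718%, 1.10% and 0.60% in lung. Brain was the higher in 6 of 7 mice, by 0.624 points on average (95% interval -0.293 to 1.54, limma adjusted p = 0.277). Maternal Klf4 averaged 1.62 ± 0.538% in brain and 0.974 ± 0.515% in lung (SD, n = 8) and was higher in brain in 7 of 8 mice (limma adjusted p = 0.202). edgeR on the calls gave maternal Klf4 an adjusted p of 0.0366.

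The other 5 imprinted regions gave no call with all areas in the brain mean. Maternal Plagl1 (chr10:13091188-13091361) averaged 91.4 ± 1.36% in brain and 89.3 ± 1.31% in lung (SD, n = 7, 2.08 points, 95% interval 0.172 to 3.99, limma adjusted p = 0.153). Without cerebellum in the brain mean it passed, at 2.33 points (limma adjusted p = 0.0359). Paternal Gnas (chr2:174295708-174295954) averaged 11.9 ± 2.33% in brain and 13.9 ± 2.81% in lung (SD, n = 8, -2.00 points, limma adjusted p = 0.153). All 10 paternal Gnas CpGs tested had the lower mean in brain, and none was called. Maternal Gnas averaged 79.7 ± 6.69% in brain and 79.02 ± 6.53% in lung (SD, n = 8, 0.659 points, limma adjusted p = 0.824), and without the mouse 5 prefrontal cortex library the difference was 2.65 points (limma adjusted p = 0.218). Paternal Plagl1 averaged 4.67 ± 4.92% in brain and 3.34 ± 1.21% in lung (SD, n = 7, 1.34 points, limma adjusted p = 0.694). Without the mouse 5 prefrontal cortex library that difference was -0.346 points.

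Mest (chr6:30737609-30737809) could be compared in the 4 old mice only. Its maternal level averaged 83.2 ± 2.202% in brain and 76.9 ± 6.30% in lung (SD, n = 4). That 6.27-point difference had a 95% interval of -1.72 to 14.3 (limma adjusted p = 0.202). All 9 of its maternal CpGs had the higher mean in brain, by 3.82 to 12.1 points, and none was called. Its paternal level averaged 12.6 ± 2.87% in brain and 13.6 ± 2.03% in lung (SD, n = 4, limma adjusted p = 0.734). Paternal Impact averaged 6.06 ± 1.89% in brain and 7.15 ± 2.08% in lung (SD, n = 7, limma adjusted p = 0.361), and maternal Impact 85.3 ± 3.24% in brain and 84.8 ± 3.84% in lung (SD, n = 7, limma adjusted p = 0.815). The maternal Impact difference was 0.186 points without the mouse 5 prefrontal cortex library, against 0.464 points with it.

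Commd1 (chr11:22971952-22972139) showed the smallest difference of the imprinted region-alleles, on the maternal allele. In old mice 1 to 4 its maternal brain means were 93.6%, 93.3%, 89.1% and 84.9%, against 88.2%, 93.02%, 93.2% and 84.96% in lung. In young mice 5 to 7 they were 91.9%, 92.4% and 93.03%, against 94.1%, 91.9% and 89.8% in lung. Brain was higher in 4 mice and lower in 3, and the groups overlapped over nearly their whole range. The mean difference was 0.435 points (95% interval -2.16 to 3.03, limma adjusted p = 0.795). It was 0.201 points without the mouse 5 prefrontal cortex library, and maternal Impact was then the smaller. Paternal Commd1 averaged 5.41 ± 2.16% in brain and 6.19 ± 3.46% in lung (SD, n = 6, limma adjusted p = 0.754).

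By class, 5 of 6 imprinted paternal alleles had the lower mean in brain, with a median difference of -1.02 points, and 1 of them was called. All 6 imprinted maternal alleles had the higher mean in brain (median 0.958 points), and none was called. All 6 control region-alleles had the higher mean in brain (median 1.21 points), and 2 were called. Over all 18 region-alleles 13 were higher and 5 lower, with a median of 0.653 points. Without the mouse 5 prefrontal cortex library all 6 imprinted paternal alleles had the lower mean in brain (median -1.19 points), and the median of the maternal ones was 2.04 points. Alleles of 1 region come from the same reactions, so these counts are a description.

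**Figure D3:**
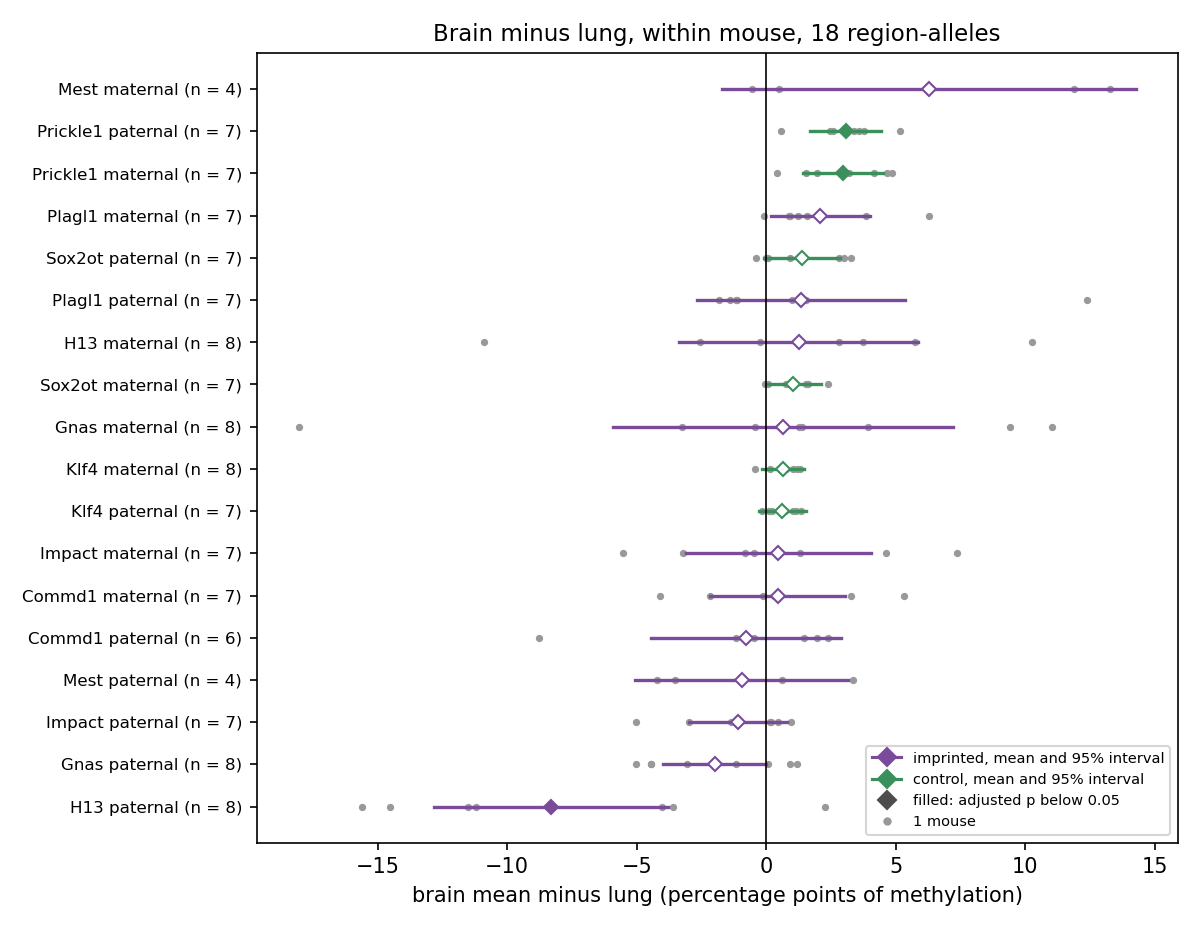
Brain mean minus lung within mouse, in percentage points (x axis), for 18 region-alleles (y axis) sorted by size, with grey points for single mice, diamonds for means and lines for 95% intervals. Filled diamonds mark the 3 that passed, paternal H13 at -8.32 and Prickle1 at 3.06 and 2.96 points, while the wide interval of maternal Mest rests on 4 mice.

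Each area was also set against lung, and all 5 comparisons share the same lung libraries. The exact sign-flip test called none in any area: its lowest adjusted p was 0.0531 in nucleus accumbens, 0.0844 in hypothalamus, 0.0938 in cerebellum, 0.25 in hippocampus and 0.281 in prefrontal cortex. Paternal H13 averaged 7.80 ± 3.58% in hippocampus (SD, n = 7), a difference of -9.67 points from the 17.5% of the same mice's lungs (limma adjusted p = 0.00603). It was the only one of 16 region-alleles called there (6.25%). In cerebellum it averaged 7.95 ± 3.90% (SD, n = 8), at -9.47 points from lung (limma adjusted p = 0.0174), the only one called of 18 (5.56%). Every hippocampus and every cerebellum value lay below the lung of its mouse. In nucleus accumbens paternal H13 averaged 9.14 ± 3.87% (SD, n = 8), at -8.29 points from lung and lower in 8 of 8 mice (limma adjusted p = 0.00714). In hypothalamus it averaged 9.67 ± 4.52% (SD, n = 8), at -7.75 points from lung and lower in 7 of 8 mice (limma adjusted p = 0.0214).

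The cerebellum call for H13 rests on a margin: limma adjusted p was 0.0512 without mouse 3, 0.0553 without mouse 4 and 0.0511 without mouse 8. The hypothalamus call likewise had 0.0534 without mouse 1, 0.0508 without mouse 3, 0.0560 without mouse 4 and 0.0513 without mouse 6, and 0.0596 with a minimum of 100 calls.

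Prefrontal cortex had no call among 18 region-alleles in limma (0%), with 1 at an unadjusted p below 0.05, maternal Plagl1. Paternal H13 averaged 11.2 ± 7.90% there (SD, n = 8), at -6.19 points from lung (95% interval -14.7 to 2.30, limma adjusted p = 0.30). It was lower than lung in 7 of 8 mice. Without the mouse 5 library it averaged 8.64% in prefrontal cortex and 18.4% in lung of the same 7 mice, a difference of -9.79 points (limma adjusted p = 0.0104), and it was the 1 call. A fit that ignored the pairing by mouse called maternal Plagl1 there.

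Hypothalamus gave 5 calls of 18 (27.8%) and nucleus accumbens 5 of 17 (29.4%). These were paternal H13 and both alleles of Prickle1 and Sox2ot in each area. Paternal Prickle1 was above lung by 3.16 points in hypothalamus (limma adjusted p = 0.0130) and by 4.04 points in nucleus accumbens (limma adjusted p = 0.0120), higher in 7 of 7 mice in each. Maternal Prickle1 was above lung by 3.17 points in hypothalamus (limma adjusted p = 0.0149) and by 3.70 points in nucleus accumbens (limma adjusted p = 0.00714). With a minimum of 100 calls neither hypothalamus call for Prickle1 remained, at 1.12 points for the paternal (limma adjusted p = 0.766) and 2.57 points for the maternal one (limma adjusted p = 0.442). In cerebellum paternal Prickle1 was above lung in 7 of 7 mice by 4.02 points and just missed the threshold (limma adjusted p = 0.0501). Some brain levels rest on 10 CpGs, while every lung level rests on 11. Among them are paternal cerebellum of mice 2 (97.2%) and 5 (94.5%) and nucleus accumbens of mouse 6 (95.8% paternal, 95.3% maternal). Where the last CpG, at 51.8% (paternal) over the libraries, has too few calls, a level comes out higher. The area comparisons were not run without that CpG.

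Sox2ot passed against lung in hypothalamus and nucleus accumbens. Maternal Sox2ot averaged 6.90 ± 1.56% in hypothalamus and 5.85 ± 1.25% in nucleus accumbens, against 2.95 ± 0.909% in lung (SD, n = 7). It was above lung by 3.95 points in hypothalamus (7 of 7 mice, limma adjusted p = 0.0130) and by 2.90 points in nucleus accumbens (6 of 7 mice, limma adjusted p = 0.0155). Paternal Sox2ot averaged 6.19 ± 2.32% in hypothalamus and 6.23 ± 1.44% in nucleus accumbens, against 2.53 ± 1.39% in lung (SD, n = 7). It was above lung by 3.66 points in hypothalamus (limma adjusted p = 0.0214) and by 3.70 points in nucleus accumbens (limma adjusted p = 0.0161). In cerebellum maternal Sox2ot was below lung in 7 of 7 mice, by 1.26 points, which did not pass (limma adjusted p = 0.166). Prefrontal cortex was below lung in 6 of 7 mice for that allele (-0.474 points, limma adjusted p = 0.668). Hippocampus was below lung in 4 of 5 mice (-0.0358 points, limma adjusted p = 0.968).

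Without mouse 5, neither Sox2ot call in nucleus accumbens remained (limma adjusted p = 0.0519 for both), nor with a minimum of 100 calls (0.118 for the maternal and 0.0799 for the paternal allele). The paternal hypothalamus call had limma adjusted p = 0.0534 without mouse 1, 0.0537 without mouse 5 and 0.0549 without mouse 6.

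**Figure D4:**
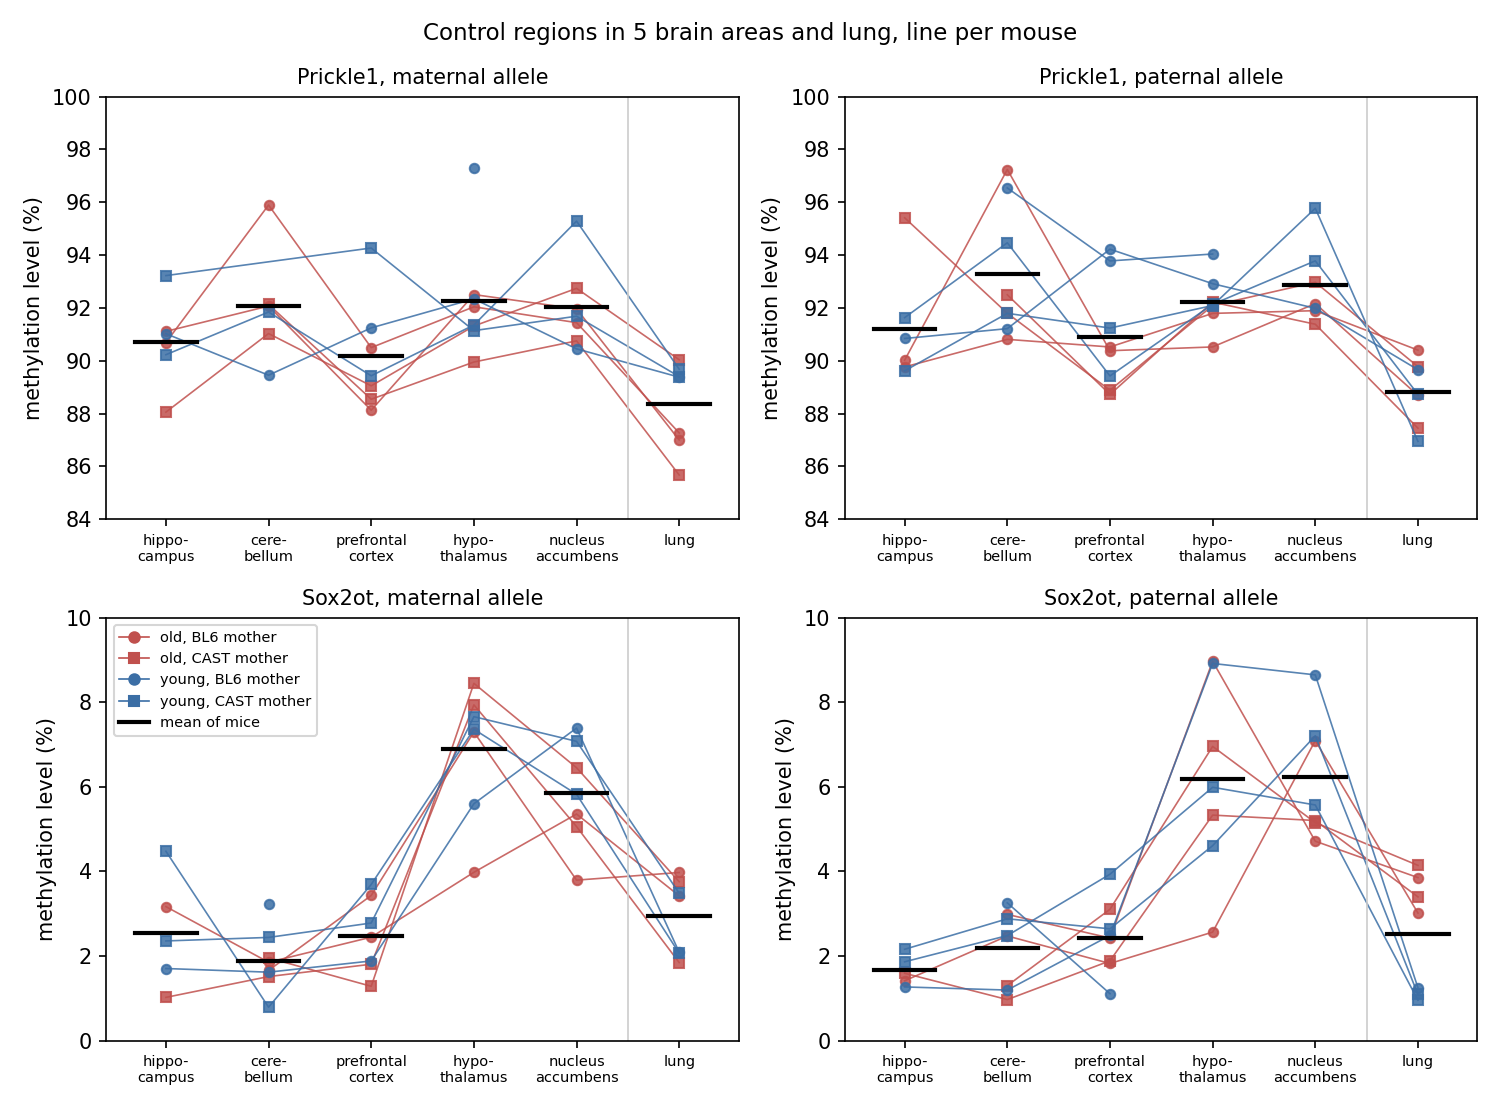
Methylation level in percent (y axes, cropped to 84 to 100% for Prickle1 and running to 10% for Sox2ot) by tissue (x axes) on each parental allele, with 1 line per mouse, colour for age, symbol for the mother's strain and black bars for means. Lung has the lowest mean for Prickle1, and Sox2ot stands highest in hypothalamus and nucleus accumbens, at 5.85 to 6.90% on average against 2.53 to 2.95% in lung.

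The size of the difference varied with age at 2 of 16 region-alleles (12.5%). For paternal H13, old mice differed by -13.2 ± 2.18 points and young mice by -3.43 ± 4.36 points (SD, n = 4 each). The contrast was -9.79 points with the cross in the fit (95% interval -13.9 to -5.69, limma adjusted p = 0.0166). Old and young mice did not overlap there, nor at paternal Sox2ot and paternal Klf4, which makes 3 of 16 (18.8%). The exact permutation p for H13 was 0.0286, the smallest that 4 mice against 4 allow, and 0.229 when adjusted over the 16, so no age contrast passed that test. Without the mouse 5 prefrontal cortex library the contrast was -8.74 points (limma adjusted p = 0.00310).

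For paternal H13 the mean of each organ differed between the ages, but the values of single mice overlapped. Brain means averaged 6.99 ± 1.41% in old and 11.2 ± 3.49% in young mice, while lung averaged 20.2 ± 3.13% in old and 14.6 ± 6.14% in young mice (SD, n = 4 each). In brain, mice 6 and 7 read 7.92% and 8.81%, within the old range of 5.62% to 8.97%. The higher young brain means were 12.7% in mouse 5, with its prefrontal cortex library at 29.4%, and 15.4% in mouse 8. In lung the young values of mice 5 to 7 lay below every old value, and mouse 8, the shallowest, lay above them. Its lung value rests on 86 calls per CpG.

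For paternal Sox2ot, old mice differed by 0.14 ± 0.557 points (SD, n = 4) and young mice by 3.03 ± 0.223 points (SD, n = 3). Brain means were 4.77%, 3.07%, 4.13% and 3.00% in old mice, against 3.85%, 3.01%, 4.14% and 3.40% in their lungs. In young mice 5 to 7 they were 3.97%, 3.90% and 4.503%, against 0.951%, 1.09% and 1.25% in their lungs. The brain means of the ages overlapped and the lung values did not. At the median calls of 1 CpG, counting error was wide at these low lung levels, and Wilson 95% intervals of old and young lungs overlapped. They ran from 1.55% to 8.14% in mouse 1 and from 0.349% to 2.97% in mouse 5, for example. Each level averages 14 CpGs, and intervals of single libraries do not measure the spread between mice. Every old lung also had fewer median calls per paternal Sox2ot CpG than every young lung. Whether depth bears on the separation was not tested. The contrast was -2.98 points (95% interval -4.35 to -1.61, limma adjusted p = 0.0191).

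Both age results rest on few mice. The H13 contrast had limma adjusted p = 0.0525, 0.0717, 0.0697 and 0.0662 without mice 2, 3, 4 and 7 in turn. The Sox2ot contrast had 0.0709, 0.0939, 0.0697, 0.118, 0.0978 and 0.143 without mice 2, 3, 4, 5, 6 and 7 in turn.

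**Figure D5:**
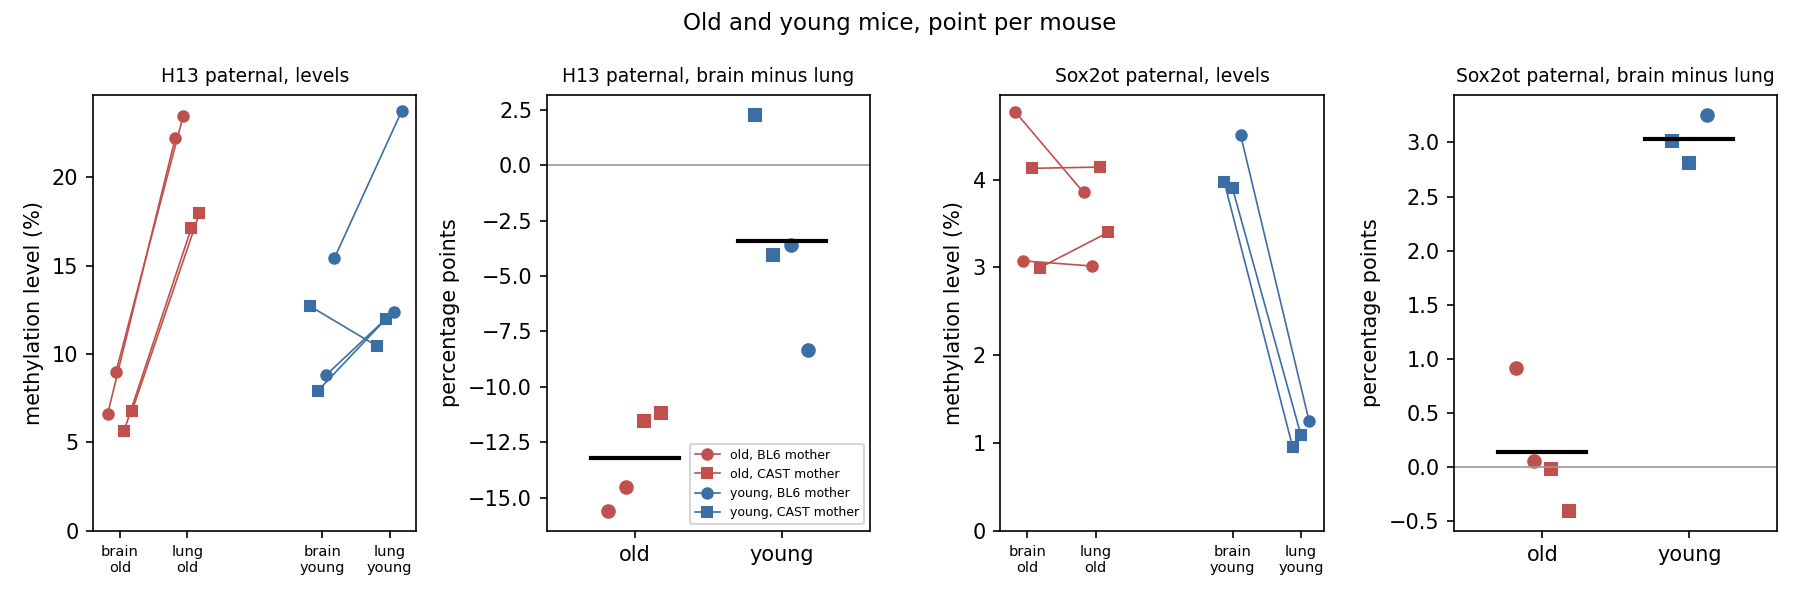
Paternal H13 (left pair of panels) and paternal Sox2ot (right pair) in old (red) and young (blue) mice, with 1 point per mouse and squares for a CAST mother. The first panel of each pair plots the brain mean and lung level in percent, joined within a mouse, and the second plots brain minus lung in percentage points with the group mean as a bar. Old mice sit lower than young mice in both difference panels, at means of -13.2 and -3.43 points for H13 and 0.14 and 3.03 points for Sox2ot.

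The cross made no difference that passed. None of 16 region-alleles was called between BL6 and CAST mothers in limma (0%), 2 had an unadjusted p below 0.05, and the exact permutation test also called none. Those 2 were paternal H13, with a contrast of -4.39 points (limma adjusted p = 0.370), and maternal Commd1, with a contrast of 4.59 points (limma adjusted p = 0.370). Paternal alleles come from CAST in mice with a BL6 mother and from BL6 in mice with a CAST mother, so strain of the allele and direction of the cross cannot be told apart.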

How the data were processed

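Percent methylation and call counts per CpG, allele and sample were taken from the authors' deposited table. Per the submitters' processing notes, reads were handled with bcl2fastq 2.20, Trim Galore 0.6.6 and Bismark 0.14.4 on GRCm38. The tool that split reads by parent is not given in the sources used here. Genome 1 of the table was read as BL6 and genome 2 as CAST, an assumption not found in the labels. The labelled mother then made an allele maternal or paternal. So read, the maternal allele was the more methylated in the brain mean and in lung at every tested imprinted region of every mouse with a value. Within single libraries the exception was Gnas in the mouse 5 prefrontal cortex, at 2.65% maternal and 9.13% paternal. Region names of Dlk1-Dio3 and Igf2-H19 that differed only by a running number were pooled. The same animal gave all 6 tissues, so differences were paired by mouse. The within-mouse correlation of deviations in brain and lung over region-alleles had a median of 0.354 (range -0.575 to 0.938 over 8 mice).

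CpGs needed 50 calls, brain means needed 3 of the 5 areas and region-alleles needed 4 mice, 2 per age or cross. Differences were tested with limma 3.58.1 in R 4.3.3, age and cross together in a second fit, with Benjamini-Hochberg adjustment, and with edgeR 4.0.16 on calls, exact sign-flip and exact permutation tests as alternatives. Scripts were tested on simulated data. All region-alleles are named. Those past the threshold, and the imprinted and control ones with the smallest difference, are given per mouse. CpGs are named where the difference was largest or smallest in a called region-allele. The regions and comparisons were chosen with earlier results of these data known. Depth per library limits precision as given beside the results. Regions with too few calls (Snrpn, Dlk1-Dio3, Igf2-H19, Igf2r, Mrpl10, Muc20) were not tested.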

Additional observations from a re-analysis of the deposited data

Results flagged for a closer look

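In 27 groups checked for a mouse far from the rest, 3 had one, and chance flags about 1 in 20 groups. Paternal Plagl1 in mouse 5 differed between brain and lung by 12.4 points, where the other 6 mice lay between -1.84 and 1.54. Its level was 15.7% in brain and 3.36% in lung, and its prefrontal cortex library read 62.8%. The Plagl1 allele gap of the same mouse differed by -11.4 points, against -0.336 to 7.4 in the others. Paternal Commd1 in mouse 1 differed by -8.77 points, against -1.19 to 2.37 in the other 5 mice, with 3.52% in brain and 12.3% in lung.

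The brain-lung difference itself differed between old and young mice at paternal H13 (contrast -9.79 points, limma adjusted p = 0.0166) and at paternal Sox2ot (contrast -2.98 points, limma adjusted p = 0.0191).

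Lung also had signal in regions too shallow for the comparisons, taken as methylated calls over all calls summed across mice. Dlk1-Dio3, an imprinted domain methylated on the paternal copy, read 13.9% in brain and 12.3% in lung on the maternal allele, and 89.9% in brain and 83.8% in lung on the paternal allele. Igf2-H19, also paternally methylated, read 25.4% in brain and 16.1% in lung on the maternal allele, and 69.5% in brain and 66.1% in lung on the paternal allele, from fewer than 200 lung calls on each. Snrpn, maternally methylated, read 76.3% in brain and 66.98% in lung on the maternal allele, and 13.4% in brain and 16.9% in lung on the paternal allele. These differences between brain and lung were not tested.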

How the results depend on the processing

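Paternal H13 kept its lower brain mean, and both Prickle1 alleles their higher one, under every alternative run for them. Of 18 region-alleles, 3 passed with the pairing by mouse and 3 without that replicate block. The counts moved as follows, and the cause was not tested except where fewer mice or fewer region-alleles entered. With at least 100 or 200 calls per CpG, 1 region-allele passed (15 and 5 tested), and 1 passed in old mice alone. None passed with all 5 areas required, in the exact test or in young mice alone, and 5 passed without cerebellum, where maternal Plagl1 and maternal Sox2ot joined the 3. Of the CpG-alleles, 0 passed with all 5 areas required, in the exact test, in young mice alone or without nucleus accumbens, and 4 passed without hippocampus. Among the allele gaps, 1 passed at 200 calls, without the mouse 5 prefrontal cortex library, without prefrontal cortex and in old mice alone. For age, 1 passed at 100 or 200 calls, and 0 with all 5 areas required, in the exact test or without nucleus accumbens. With at least 100 calls, calls against lung numbered 4 in hippocampus, 2 in prefrontal cortex, 2 in hypothalamus and 1 in nucleus accumbens. Without the pairing they numbered 3 in cerebellum and 1 in prefrontal cortex, and prefrontal cortex had 1 without the mouse 5 library.

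Leaving out 1 mouse at a time gave 3 region-alleles each time, 0 to 27 CpG-alleles, 0 to 1 gaps, 0 to 2 age contrasts and 0 cross contrasts. By area it gave 1 to 5 calls in hippocampus, where 5 came without mouse 4, and 0 to 2 in cerebellum. It gave 0 to 1 in prefrontal cortex, 3 to 5 in hypothalamus and 3 to 7 in nucleus accumbens.

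The differences that changed sign were small and not called. Maternal Gnas was at -0.410 (100 calls), -0.162 (200 calls), -0.421 (without hippocampus), -0.272 (without cerebellum) and -1.29 points (young mice), and at -0.825 to 3.33 with 1 mouse left out. Paternal Plagl1 was at -0.346 without the mouse 5 prefrontal cortex library, -0.311 without prefrontal cortex, -0.0239 on the logit scale and -0.0954 as a log2 odds ratio in edgeR, and at -0.501 to 1.87 with 1 mouse left out. Maternal Commd1 was at -0.0255 with 20 calls and at -0.379 to 1.19 with 1 mouse left out, and paternal Commd1 at -1.41 to 0.820. Maternal Impact was at -0.687 with all 5 areas required and at -0.687 to 1.46 with 1 mouse left out. Maternal H13 was at -0.782 in young mice and at -0.0283 to 2.99 with 1 mouse left out. The CpG chr2:152686958 (paternal) was at 0.0407 with 100 or 200 calls and at -0.924 to 0.323 with 1 mouse left out. The CpG chr15:93500761 (paternal) was at 0.0372 without hippocampus, 0.360 with age and cross in the fit and -1.76 to 1.31 with 1 mouse left out. The CpG chr15:93500677 (maternal) was at 0.173 in old mice and at -0.632 to 0.101 with 1 mouse left out. Leaving out the last CpG of H13 and Prickle1 was chosen after seeing the data and moved no count past 1.5 times.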
